A study of Mus musculus with 9 samples.

Results

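Matrix metalloproteinases and their inhibitors were followed across 3 oxygen conditions in cultured mouse primary macrophages. The set held 10 genes of the 34866 listed, chosen by name and with earlier results of these data known. These were the metalloproteinases Mmp9, Mmp12, Mmp13, Mmp14 and Mmp19, the tissue inhibitors Timp1, Timp2 and Timp3, and the membrane-bound proteases Adam8 and Adam17. RNA sequencing of mRNA covered 9 samples, 3 from each condition. Standard oxygen cells had 7 days at standard oxygen. Acute hypoxia cells had standard oxygen followed by 3 hours at 1% oxygen, and chronic hypoxia cells had 7 days at 1% oxygen. Common to all groups was alpha-MEM with serum and L929-conditioned medium, which carries a growth factor for macrophages. Strain, genotype, age and the tissue of origin of the cells are not given in the labels. The labels number the samples as replicates without saying whether they came from separate animals or cultures, so the p-values measure the spread between these samples, which may be technical. In such bulk samples, fewer cells expressing a gene and less of its RNA per cell cannot be told apart.

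Matrix metalloproteinases are zinc-dependent endopeptidases that are made as inactive precursors and cut collagens, elastin, gelatin and other proteins around the cell. The tissue inhibitors of metalloproteinases bind their active sites and block them, so the balance of enzyme and inhibitor sets how much matrix is cut. ADAM proteases carry a related catalytic domain on a membrane anchor and release the outer parts of other membrane proteins, such as the cytokine TNF. Macrophages are a known source of both families in inflamed, healing and tumour tissue. The values are transcript levels, and neither secreted protein nor enzyme activity was measured.

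Values are in TPM, the share of a library's transcripts that a gene holds after correction for its length, so levels can be set side by side between genes. Read depth cannot be read from them. Libraries held 10724 to 11208 genes at 1 TPM or more. The libraries carry a second label, a digit code in their descriptions whose meaning is not stated, and each of its 3 values (here X, Y and Z) occurs once in every group. Within a group, libraries X and Y differed by a median of 0.125 to 0.141 on the log2 scale over 11065 genes, whereas library Z differed from either by 0.238 to 0.306, so code Z stood apart in every group. All 8 macrophage markers looked for were above 1 TPM, with a summed level of 56607 to 74792 TPM. Most of that sum was Lyz2, at 52793 to 70403 TPM. The marker Mertk stood at 3.37, 2.21 and 2.59 TPM in the Z libraries of standard oxygen, acute and chronic hypoxia. In the X and Y libraries Mertk stood at 21.8 to 33.3 TPM. Of 10 fibroblast markers, 9 were below 1 TPM in all libraries, and all 6 dendritic cell and all 4 endothelial markers were too. Of 10 neutrophil markers, 6 were below 1 TPM in all libraries. The sum of the neutrophil markers was nearly all S100a8, at 895 to 1593 TPM (standard oxygen), 937 to 1906 TPM (acute) and 258 to 582 TPM (chronic hypoxia). Of 8 osteoclast markers, 3 were below 1 TPM in all libraries, and the summed level was 31.3 to 39.5 TPM in standard oxygen, 25.1 to 62.2 TPM after acute hypoxia and 32.3 to 53.7 TPM in chronic hypoxia. The summed level of 6 genes known to respond to low oxygen was 259 to 382 TPM (standard oxygen), 901 to 1646 TPM (acute) and 1645 to 1719 TPM (chronic hypoxia).

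The base sequences just upstream of the transcription start are shown for the 4 metalloproteinase genes of chromosome 9 that reached a group mean of 1 TPM, since this gene cluster holds Mmp12 and Mmp13, the members with the largest chronic differences. They are RefSeq windows of 250 bases on build GRCm38.p6, plus strand, and Mmp12 has 2 annotated starts. Capitals mark matches to the motifs searched on both strands. These were TGANTCA (a loose form of the AP-1 site, N being any base), TATAAA (the TATA box) and GGGCGG (the GC box). ACGTG and GCGTG (cores of the hypoxia response element) and the NF-kB site were searched too.
Mmp13, chr9:7272264-7272513: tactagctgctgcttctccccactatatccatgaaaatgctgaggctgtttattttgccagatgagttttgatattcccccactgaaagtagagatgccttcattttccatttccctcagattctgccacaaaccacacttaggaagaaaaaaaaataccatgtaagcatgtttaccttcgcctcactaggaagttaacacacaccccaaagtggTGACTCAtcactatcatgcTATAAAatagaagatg
Mmp12, first start, chr9:7344147-7344396: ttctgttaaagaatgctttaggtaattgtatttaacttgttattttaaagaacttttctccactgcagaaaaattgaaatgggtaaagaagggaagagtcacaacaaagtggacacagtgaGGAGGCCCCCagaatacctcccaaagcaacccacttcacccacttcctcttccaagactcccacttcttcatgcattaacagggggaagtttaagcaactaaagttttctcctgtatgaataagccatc
Mmp12, second start, chr9:7347124-7347373: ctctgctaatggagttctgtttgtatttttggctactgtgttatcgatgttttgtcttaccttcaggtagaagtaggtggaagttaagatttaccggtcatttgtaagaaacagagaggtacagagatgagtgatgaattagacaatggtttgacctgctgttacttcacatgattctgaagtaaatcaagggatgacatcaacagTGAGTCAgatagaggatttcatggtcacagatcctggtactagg
Mmp8, chr9:7558179-7558428: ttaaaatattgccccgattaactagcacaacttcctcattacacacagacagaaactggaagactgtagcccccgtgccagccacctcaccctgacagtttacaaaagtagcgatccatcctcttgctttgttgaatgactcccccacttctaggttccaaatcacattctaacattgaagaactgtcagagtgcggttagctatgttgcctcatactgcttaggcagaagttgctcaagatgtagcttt
Mmp27, chr9:7571146-7571395: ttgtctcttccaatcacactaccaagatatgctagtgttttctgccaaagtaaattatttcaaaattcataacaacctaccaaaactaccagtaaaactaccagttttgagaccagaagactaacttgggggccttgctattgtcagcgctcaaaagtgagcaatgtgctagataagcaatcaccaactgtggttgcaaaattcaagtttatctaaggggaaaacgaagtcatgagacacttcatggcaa
The Mmp13 window held TGACTCA from -35 to -29 and TATAAA from -16 to -11, counted from the start site as +1. The second Mmp12 window held TGAGTCA from -44 to -38, and the first held an NF-kB match. Neither the Mmp8 nor the Mmp27 window held a match. Among 32851 RefSeq windows of this length, 6.75% held TGANTCA, 12.37% TATAAA and 5.0% the NF-kB site. Of the 10 metalloproteinase genes of the cluster, 8 held TGANTCA and 7 held TATAAA, and none held GGGCGG, which occurred in 32.74% of all windows. The TGANTCA match of Mmp20 was TGAATCA, and the others had G or C as the middle base. Windows were found for 8 of the 10 members of the set. Among the members, ACGTG was held by Mmp14 and Timp1 (16.57% of all windows), and GCGTG by Adam17, Timp1, Timp2 and Timp3 (28.16%). Among the cluster genes, only Mmp7 held ACGTG, and only Mmp7 held GCGTG. A gene with 2 windows was counted once if either held a match, while the shares are per window. These matches describe the letters only.

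Mmp12 encodes macrophage elastase, which cuts elastin and is made mainly by macrophages. Its gene lies at chr9:7344381-7369499 (GRCm38, plus strand), and its end overlaps exon sequence of Mmp1b on the other strand, a gene listed at 0 in all libraries. Mmp12 stood at 183, 144 and 42.7 TPM in standard oxygen for codes X, Y and Z. In acute hypoxia it stood at 147, 126 and 83.6 TPM, and in chronic hypoxia at 2161, 1765 and 402 TPM. Every chronic library lay above every other library, with library Z lowest in each group. The mean was 123 ± 72.2 TPM in standard oxygen, 119 ± 32.4 TPM in acute hypoxia and 1443 ± 922.8 TPM in chronic hypoxia (SD, n = 3). Mmp12 thus moved from place 926 in standard oxygen to place 94 in chronic hypoxia when all genes were ordered by mean TPM. Within a code, the chronic library held 11.8, 12.3 and 9.40 times the standard library's level for X, Y and Z. Against acute hypoxia the ratios were 14.7, 14.0 and 4.81.

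For Mmp12 in chronic against standard oxygen, limma gave a log2 difference of 3.46 ± 0.78 (SE) with a Benjamini-Hochberg adjusted p of 0.0742, which did not pass the 0.05 threshold. With the code as a block, which compares libraries within a code, the same difference had an SE of 0.10 and a limma adjusted p of 0.00228. Against acute hypoxia the difference was 3.30 ± 0.63, and its limma adjusted p was 0.0678 unblocked and 0.0108 with the code block. Acute hypoxia against standard oxygen gave 0.15 ± 0.54 (limma adjusted p = 1.000 without a block and 0.831 with it). In that comparison codes X and Y were lower at 0.807 and 0.878 times, and code Z was higher at 1.96 times. Without the code Z libraries the acute difference was -0.25.

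Mmp9 encodes gelatinase B, which cuts denatured collagen and basement membrane collagen. Its gene lies at chr2:164940780-164955850 (GRCm38, plus strand). Mmp9 was the most abundant of the 23 metalloproteinase genes listed, at 981, 984 and 1927 TPM in standard oxygen for X, Y and Z. It stood at 926, 866 and 1685 TPM in acute hypoxia and at 2271, 2228 and 2781 TPM in chronic hypoxia. All 3 chronic libraries lay above the other 6, while the acute and standard libraries overlapped. Means were 1297 ± 545.2, 1159 ± 457 and 2427 ± 307.8 TPM (SD, n = 3), which placed Mmp9 at position 96, 113 and 37 among all genes. In contrast to Mmp12, the Z library was the highest of each group. The chronic to standard ratio was 2.32, 2.26 and 1.44 for X, Y and Z, and the acute to standard ratio was 0.944, 0.880 and 0.875.

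Chronic hypoxia against standard oxygen gave Mmp9 a log2 difference of 0.97 ± 0.28 (SE), and limma gave an adjusted p of 0.115 unblocked and 0.0236 with the code block. The difference from acute hypoxia was 1.13 ± 0.27, for which limma gave adjusted p-values of 0.0987 unblocked and 0.0141 blocked. Acute hypoxia against standard oxygen gave -0.15 ± 0.36, and the limma adjusted p was 1.000 without a block and 0.299 with it.

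**Figure D1:**
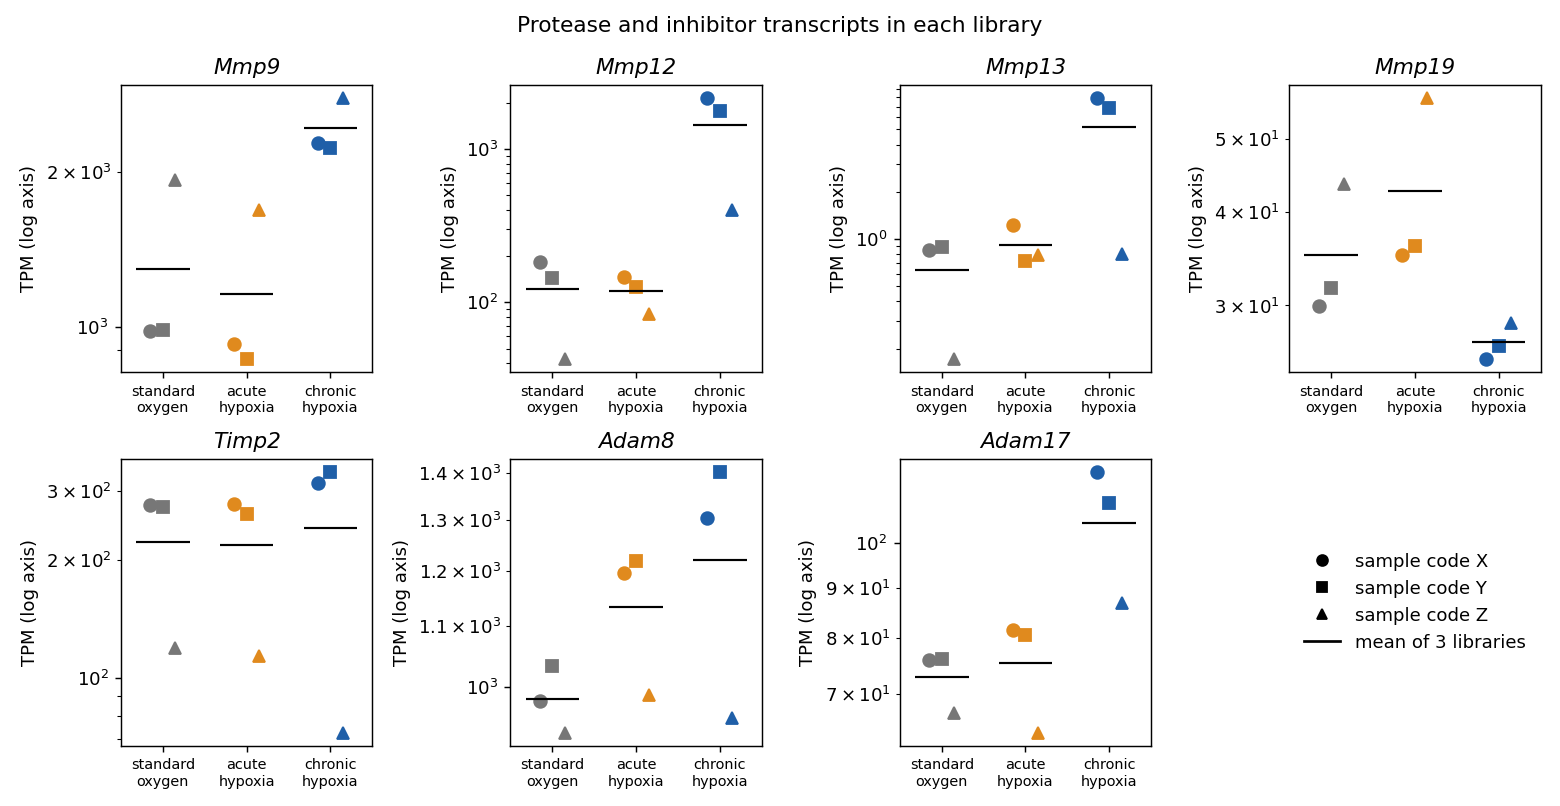
TPM (log axis) of the 7 members that were tested in at least 1 comparison, one panel per gene, with 1 point per library and a bar at the mean of 3 libraries; the point's shape gives the sample code. Mmp9, Mmp12 and Adam17 lie above the other libraries in all 3 chronic libraries and Mmp19 lies below, whereas code Z (triangles) is the highest or the lowest library of its group in most panels.

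Mmp13, interstitial collagenase of rodents, cuts fibrillar collagen. Its gene (chr9:7272514-7283331, GRCm38, plus strand) is the neighbour of Mmp12. Mmp13 was scarce, at 0.850, 0.887 and 0.172 TPM in standard oxygen for X, Y and Z and 1.22, 0.723 and 0.787 TPM after acute hypoxia. In chronic hypoxia it stood at 7.94 and 6.86 TPM for X and Y but at 0.801 TPM for Z. The X and Y chronic libraries were far above all others, and the Z chronic library lay within the range of the standard and acute groups. The ratio of chronic to standard within a code was 9.34, 7.74 and 4.67. The log2 difference was 1.65 ± 0.63 (SE), the limma adjusted p was 0.188 unblocked and 0.0436 with the code block, and that call was lost when the libraries were also rescaled by their median ratios (0.0613). Against acute hypoxia it was 1.40 ± 0.61, with limma adjusted p-values of 0.252 and 0.0948. Its mean was under 1 TPM over the acute and standard libraries, so that comparison was not tested. In the chronic comparisons Mmp13 passed the filter only through its chronic libraries.

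Mmp19, a secreted protease of basement membrane proteins, differed in the other direction. Its gene lies at chr10:128790910-128800824 (GRCm38, plus strand) and overlaps exons of Tmem198b on the other strand. The levels for X, Y and Z were 30.0, 31.7 and 43.5 TPM in standard oxygen, 35.1, 36.0 and 56.7 TPM after acute hypoxia and 25.5, 26.5 and 28.5 TPM in chronic hypoxia. Each chronic library lay below every other library. In acute hypoxia each library was above the standard library of its code, but the groups overlapped. Chronic against standard oxygen gave a log2 difference of -0.36 ± 0.16 (SE), and limma's adjusted p was 0.238 unblocked and 0.0719 with the code block. Rescaling together with the code block moved it to -0.53 with a limma adjusted p of 0.0387. Against acute hypoxia Mmp19 differed by -0.62 ± 0.20, at a limma adjusted p of 0.156 unblocked and 0.0389 blocked. For acute against standard oxygen the difference was 0.26 ± 0.23 (limma adjusted p = 0.978 and 0.258).

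Mmp14 encodes a membrane-anchored metalloproteinase that cuts collagen at the cell surface and activates the precursor of MMP2. It was near 0 in every library, between 0.0221 and 0.130 TPM, and was below the level set for testing (a mean of 1 TPM).

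Of the inhibitor TPM listed, nearly all was Timp2, which made up 99.67% or more of the summed TPM of the 3 inhibitor genes in each library. Timp2 inhibits most metalloproteinases and also takes part, with the Mmp14 product, in activating the precursor of MMP2. Its gene lies at chr11:118301069-118355740 (GRCm38, minus strand). Timp2 stood at 278, 273 and 120 TPM in standard oxygen for X, Y and Z, at 279, 263 and 114 TPM after acute hypoxia and at 316, 337 and 72.6 TPM in chronic hypoxia. The Z library was the lowest of each group by a wide margin, and the groups overlapped in all comparisons. The chronic to standard ratio was 1.14 and 1.23 for X and Y and 0.607 for Z. Its log2 differences were -0.08 ± 0.65 in chronic against standard oxygen, -0.04 ± 0.65 in chronic against acute hypoxia and -0.04 ± 0.46 in acute hypoxia against standard oxygen (SE; limma adjusted p = 0.959, 0.980 and 1.000). Without the code Z libraries the chronic against standard difference was 0.24, with a limma adjusted p of 0.0627.

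Timp1, an inhibitor that also binds the precursor of MMP9, was listed at 0 in all standard libraries and in the acute Y library, and its highest value was 0.373 TPM. Timp3, which binds to the matrix and also inhibits ADAM17, was listed at 0 in 7 of 9 libraries and reached at most 0.171 TPM. Neither was tested. Whether counting or annotation lowered the values of Timp1, Timp3 and Mmp14 was not tested, and the inhibitor sum below takes them as listed.

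The 5 metalloproteinase members held 97.4% to 98.9% of the TPM of all 23 listed metalloproteinase genes. Their sum for X, Y and Z was 1194, 1160 and 2013 TPM in standard oxygen, 1110, 1029 and 1826 TPM after acute hypoxia and 4465, 4026 and 3213 TPM in chronic hypoxia. The chronic sums lay above all others. The ratio of this sum to that of the 3 inhibitors was 4.30, 4.25 and 16.8 in standard oxygen, 3.97, 3.91 and 15.9 in acute hypoxia and 14.1, 11.9 and 44.2 in chronic hypoxia. The ratio was thus higher in chronic hypoxia within every code, while code Z in standard oxygen lay above codes X and Y in chronic hypoxia. The make-up of the sum also differed. Mmp12 supplied 15.3%, 12.4% and 2.12% of it in standard oxygen, 13.3%, 12.3% and 4.58% in acute hypoxia and 48.4%, 43.8% and 12.5% in chronic hypoxia. Mmp9 supplied 82.1%, 84.8% and 95.7% in standard oxygen and 50.9%, 55.3% and 86.6% in chronic hypoxia.

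**Figure D2:**
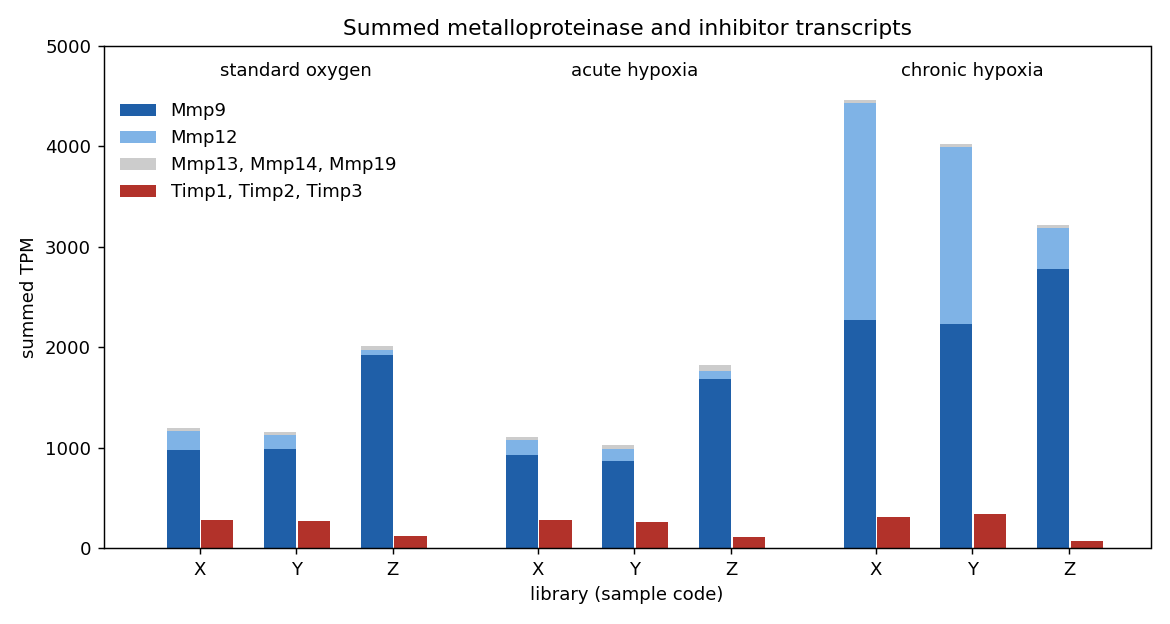
Summed TPM of the 5 metalloproteinase members (stacked, left bar of each pair) and of the 3 inhibitors (right bar) in each library, with libraries ordered by group and code. The metalloproteinase sum is 3213 to 4465 TPM in the chronic libraries and 1029 to 2013 TPM in the other 6, and Mmp12 takes a larger share of it in chronic hypoxia in every code.

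Adam8 encodes a leukocyte membrane protease that cuts adhesion molecules and other surface proteins. Its gene (chr7:139978932-139992562, GRCm38, minus strand) was among the most abundant members, at 977, 1033 and 930 TPM in standard oxygen for X, Y and Z. It stood at 1196, 1220 and 987 TPM in acute hypoxia and at 1305, 1403 and 952 TPM in chronic hypoxia. The acute and chronic X and Y libraries lay above all standard libraries, and the Z libraries of all groups lay together. The acute against standard log2 difference was 0.21 ± 0.11 (SE; limma adjusted p = 0.858 without a block and 0.257 with the code block). Chronic against standard oxygen gave 0.30 ± 0.17, with limma adjusted p-values of 0.334 and 0.114. Against acute hypoxia it was 0.09 ± 0.18 (limma adjusted p = 0.811), and this turned to -0.065 when the libraries were rescaled.

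Adam17 encodes the enzyme that releases TNF, its receptors and several growth factors from the membrane. The gene lies at chr12:21323509-21373632 (GRCm38, minus strand) and shares exon positions with Iah1 on the other strand. Adam17 stood at 75.9, 76.0 and 66.9 TPM in standard oxygen for X, Y and Z, at 81.5, 80.5 and 63.9 TPM after acute hypoxia and at 118, 110 and 86.8 TPM in chronic hypoxia. All chronic libraries lay above all others, and the acute and standard groups overlapped. The chronic to standard ratio was 1.56, 1.45 and 1.30. The log2 difference was 0.51 ± 0.14 (SE), and limma's adjusted p was 0.108 unblocked and 0.0216 with the code block. Relative to acute hypoxia Adam17 differed by 0.47 ± 0.16, with limma adjusted p-values of 0.175 and 0.0171. Rescaling by median ratios together with the code block left the limma adjusted p at 0.0585 and 0.0515. Acute hypoxia against standard oxygen gave 0.04 ± 0.13 (limma adjusted p = 1.000).

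**Figure D3:**
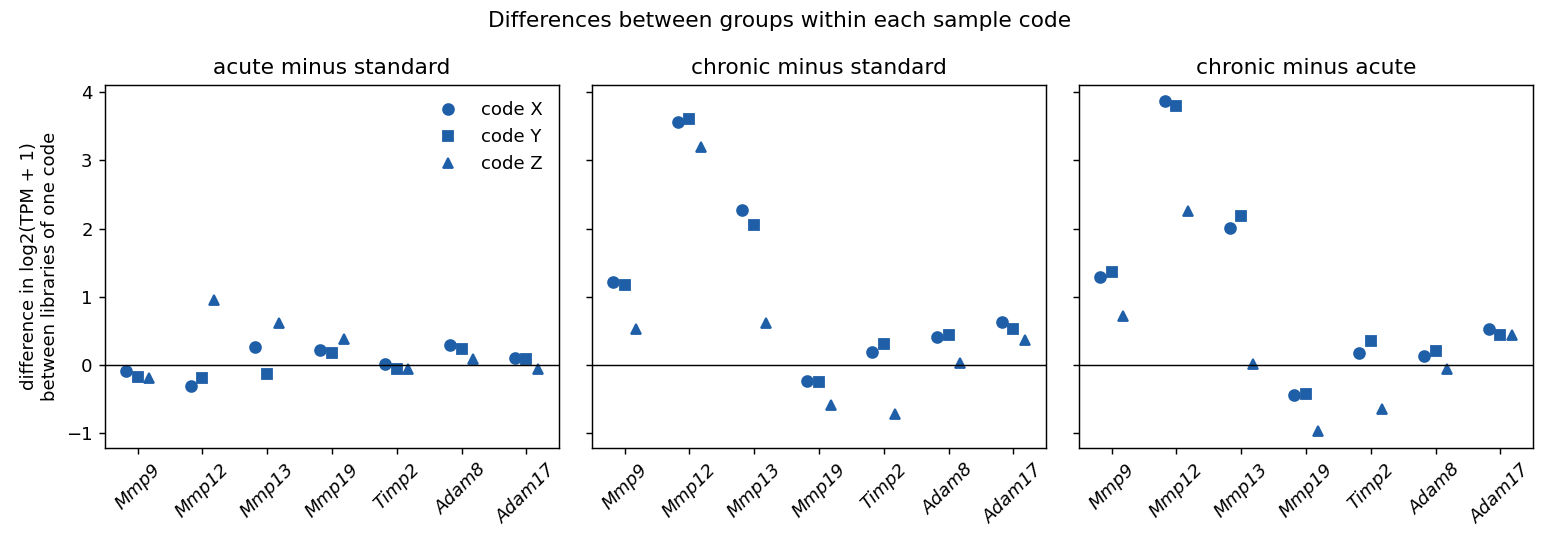
Difference in log2(TPM + 1) between libraries of the same code for the 7 tested members, with one panel per comparison and 1 point per code. In both chronic comparisons Mmp9, Mmp12 and Adam17 are above 0 and Mmp19 is below 0 in all 3 codes, while Timp2 is above 0 in X and Y and below 0 in Z.

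Over the set, limma without a block called none of the members in any of the 3 comparisons, with 6, 7 and 7 of 10 members tested in acute against standard, chronic against standard and chronic against acute. The share of all tested genes called by that rule was 0.0273%, 2.69% and 0.695%. At an unadjusted p under 0.05 the members' counts were 0, 4 and 4, and the share of all tested genes was 7.14%, 22.9% and 20.8%. With the code block, 0 members were called in acute hypoxia against standard oxygen, where 0.71% of all genes were. In chronic against standard oxygen 4 members were called, all higher (Mmp12, Mmp9, Adam17 and Mmp13). Of all genes 18.4% were called and 15.1% were called higher. Mmp13 passed the filter of 1 TPM only through its chronic libraries, at a mean of 0.636 TPM in standard oxygen and 5.20 TPM in chronic hypoxia. A gene admitted this way could hardly be called lower. In chronic against acute hypoxia 4 members were called, with Mmp12, Mmp9 and Adam17 higher and Mmp19 lower, where 15.5% of all genes were called. The 2 chronic comparisons share the chronic libraries, and both comparisons with standard oxygen share the standard libraries. The members were chosen with earlier results of these data known, so the shares beside their counts are no test of the set. The chronic libraries did not overlap the standard libraries for 4 of the 7 tested members, namely Mmp9, Mmp12, Adam17 and Mmp19, and for 29.6% of all genes tested. For chronic against acute hypoxia the same 4 members did not overlap, against 27.8% of all genes, and for acute hypoxia against standard oxygen none did, against 12.5%. The median log2 difference over the tested members was 0.10, 0.51 and 0.47 in the 3 comparisons. Over all tested genes it was 0.01, 0.16 and 0.14. The first member median is over 6 genes and the others are over 7, as Mmp13 entered the chronic comparisons only. The 3 member medians are thus not over the same genes.

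Rescaling the libraries by median ratios brought the median over all genes to -0.01 in acute hypoxia against standard oxygen and to 0.00 in both chronic comparisons. Under rescaling with the code block, 3 members were called in each chronic comparison. Mmp12 and Mmp9 were higher (limma adjusted p = 0.00257 and 0.0432 against standard oxygen) and Mmp19 was lower. The share of all genes called was then 0.491% in acute hypoxia against standard oxygen, 11.4% in chronic against standard oxygen and 9.78% in chronic against acute hypoxia. Without the libraries of code Z, limma called 5 members in chronic against standard oxygen, all higher, namely Mmp9 (1.19), Mmp12 (3.58), Mmp13 (2.17), Adam8 (0.43) and Adam17 (0.58 on the log2 scale), where 21.1% of all genes were called. It then called 5 in chronic against acute hypoxia, with Mmp9, Mmp12, Mmp13 and Adam17 higher and Mmp19 lower, where 16.3% of all genes were called. None was called in acute hypoxia against standard oxygen, where 2.95% of all genes were. Leaving out only the chronic Z library called Mmp12, Mmp13 and Adam17 in chronic against standard oxygen, where 476 of 11006 genes were called. Leaving out only the standard Z library called Mmp9, where 522 of 11023 genes were called.

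The remaining metalloproteinases and Timp4 were a list of 19 genes, of which 3 to 4 were tested. One of them, Mmp8, was called with the code block in each chronic comparison, and none was called without a block. Mmp8 encodes neutrophil collagenase and stood at 10.2, 6.98 and 37.0 TPM in standard oxygen for X, Y and Z. It stood at 9.66, 8.80 and 34.2 TPM in acute hypoxia and at 56.3, 50.3 and 81.8 TPM in chronic hypoxia. All chronic libraries were above all others. Its chronic against standard difference was 2.05 ± 0.56 (SE), and limma's adjusted p was 0.108 unblocked and 0.0214 with the code block. The neutrophil marker S100a8 differed in the same comparison by -1.66 on the log2 scale (limma adjusted p = 0.0730 without a block and 0.00567 with it). The other neutrophil markers tested were not called with or without the block and differed in direction, with Ngp at -1.48 and Camp at 0.70 on the log2 scale (limma adjusted p = 0.0767 and 0.122 with the block). Camp stood at 0.712, 0.133 and 1.65 TPM in standard oxygen and 1.86, 1.55 and 2.03 TPM in chronic hypoxia for X, Y and Z. The part of neutrophil markers in the Mmp8 and Mmp9 values was not tested.

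Mmp13, Mmp12, Mmp8 and Mmp27 lie in a row of 10 metalloproteinase genes that spans 427 kb of chromosome 9, from 7272514 to 7699585. These 4 were the cluster genes with a mean of at least 1 TPM in some group. The genes Mmp1b, Mmp20 and Mmp7 of the same cluster were listed at 0 in all libraries. Mmp27, named here after its values were seen, stood at 0.419, 0.259 and 0.126 TPM in standard oxygen and at 4.60, 5.88 and 0.113 TPM in chronic hypoxia for X, Y and Z. Mmp27 was thus higher in X and Y and not in Z, and it was not called (limma adjusted p = 0.256 without a block and 0.111 with it). Within codes, 4 of the 10 genes were higher in chronic than in standard oxygen in 3 of 3 pairs (Mmp13, Mmp12, Mmp10 and Mmp8). Mmp10 was near 0, at 0.080, 0.178 and 0 TPM in standard oxygen and 0.595, 0.620 and 0.201 TPM in chronic hypoxia for X, Y and Z. The 10 include genes listed at 0, whereas the genes tested all had a mean of at least 1 TPM. Of the 4 cluster genes that reached 1 TPM, Mmp13, Mmp12 and Mmp8 were higher in 3 of 3 pairs and Mmp27 was not. Mmp13 and Mmp27 reached it in the chronic group only, so that count favours higher values. Of all genes tested, which were filtered by their mean over both groups, 46.9% were higher in 3 of 3 pairs. The 2 filters differ, so the shares are not alike. The nearest flanking genes above 1 TPM were also higher in chronic than in standard oxygen in every code. Tmem123 had ratios of 1.55 to 1.58 over the 3 codes, Birc2 1.44 to 1.64, Birc3 1.06 to 1.27, Dcun1d5 1.26 to 1.48 and Dync2h1 1.23 to 2.92. The ratios of Mmp8 were 5.52, 7.21 and 2.21 for X, Y and Z, and that of Mmp27 in Z was 0.896. Mmp9 and Mmp19 lie on other chromosomes.

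**Figure D4:**
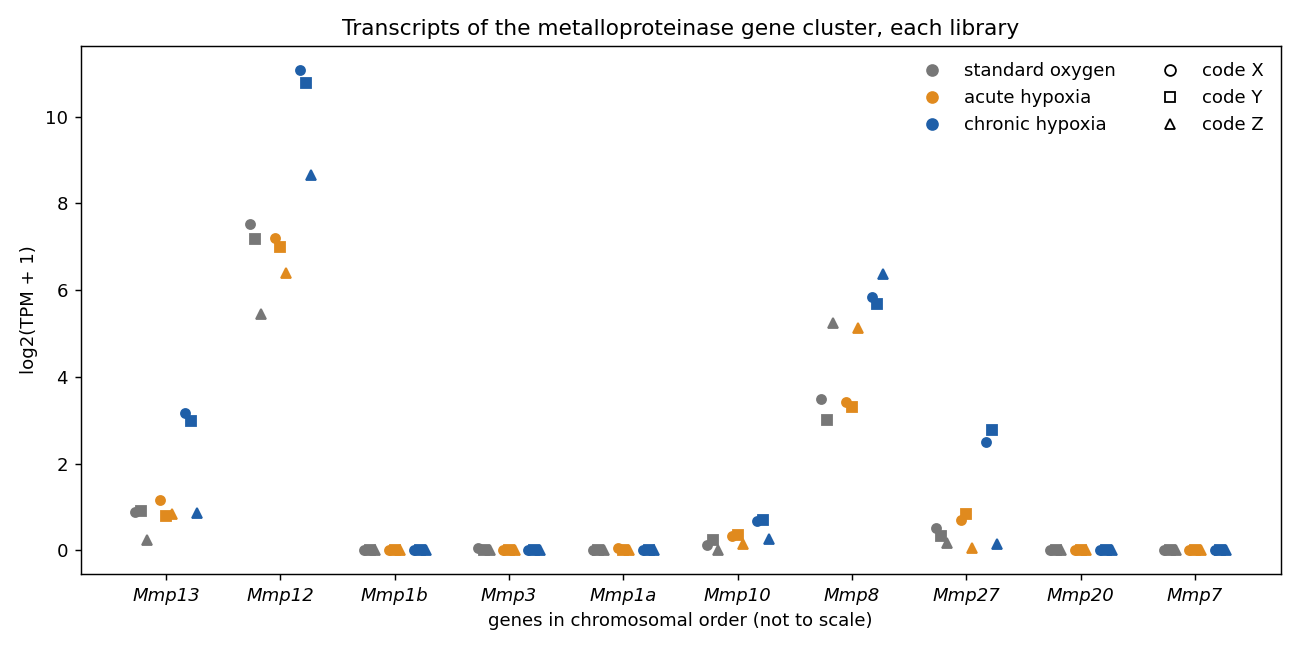
Level as log2(TPM + 1) of the 10 metalloproteinase genes of the chromosome 9 cluster in their order along the chromosome (not to scale), with 1 point per library, coloured by group and shaped by code. All 3 chronic libraries lie above the others for Mmp12 and Mmp8, the chronic X and Y libraries alone do so for Mmp13 and Mmp27, and the others lie at or near 0.

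Other ADAM proteases were a list of 15 genes with 4 tested. Adam9, which cleaves membrane and matrix proteins, was the one called with the code block. It stood at 74.4, 76.6 and 61.8 TPM in standard oxygen, 81.8, 83.1 and 57.3 TPM after acute hypoxia and 113, 130 and 82.7 TPM in chronic hypoxia for X, Y and Z. The chronic libraries of X and Y lay above all others, and the chronic library of Z lay among the acute libraries. The chronic against standard difference was 0.59 ± 0.18 (SE; limma adjusted p = 0.133 without a block and 0.0205 with it) and the chronic against acute difference was 0.54 ± 0.22 (0.226 and 0.0154). Adam15 was the most abundant of the list, at 247 ± 32.3, 248 ± 44.8 and 273 ± 31.4 TPM in standard oxygen, acute and chronic hypoxia (SD, n = 3), and was not called.

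Regulators of these proteases were a list of 16 genes with 12 tested. Without a block, limma called 0 in acute hypoxia against standard oxygen, 2 higher in chronic against standard oxygen and 0 in chronic against acute hypoxia. With the code block it called 3 higher, then 5 higher and 1 lower, then 3 higher and 3 lower, where 0.71%, 18.4% and 15.5% of all genes were called. The list's median log2 difference was 0.31, 0.25 and 0.02, beside the medians over all genes given above.

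Tgm2, a transglutaminase that crosslinks matrix proteins, stood at 67.8, 69.9 and 109 TPM in standard oxygen, 166, 170 and 259 TPM after acute hypoxia and 28.5, 29.2 and 73.9 TPM in chronic hypoxia for X, Y and Z. Acute libraries were the highest for Tgm2, and within each code the chronic library was the lowest. With the code block, limma called Tgm2 in all 3 comparisons (adjusted p = 0.00857, 0.0226 and 0.00707), at log2 differences of 1.26, -1.004 and -2.27 for acute against standard, chronic against standard and chronic against acute. Plau, the urokinase protease that generates plasmin, stood at 27.2, 26.5 and 10.7 TPM in standard oxygen and 50.7, 59.8 and 18.3 TPM in chronic hypoxia for X, Y and Z. Within each code Plau was higher in chronic hypoxia, and the groups overlapped through code Z. Its difference was 0.91 ± 0.53 (SE; limma adjusted p = 0.349 without a block and 0.0132 with it).

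Lrp1 encodes a receptor that takes up metalloproteinases, inhibitors and their complexes from outside the cell. Its level was 261, 222 and 303 TPM in standard oxygen, 344, 372 and 336 TPM after acute hypoxia and 459, 494 and 411 TPM in chronic hypoxia for X, Y and Z. The 3 groups did not overlap. Lrp1 rose in chronic against standard oxygen by 0.80 ± 0.14 (SE) at a limma adjusted p of 0.0444 unblocked and 0.0276 blocked. Plaur, the receptor of urokinase, fell outside the rule for named genes and was the other regulator that passed without a block, by 0.72 ± 0.13 (limma adjusted p = 0.0443). Cd44, a hyaluronan receptor that can hold MMP9 at the cell surface, stood at 162 ± 5.52, 252 ± 13.8 and 173 ± 8.19 TPM in standard oxygen, acute and chronic hypoxia (SD, n = 3). The acute Cd44 libraries lay above all others, and with the code block the acute against standard difference was 0.64 (limma adjusted p = 0.0439). Bsg, a membrane glycoprotein known as an inducer of metalloproteinases, stood at 354 ± 38.7, 404 ± 52.9 and 504 ± 35.2 TPM (SD, n = 3). With the code block Bsg was called in chronic against standard oxygen at 0.51 (limma adjusted p = 0.0151).

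Membrane proteins that ADAM17 or ADAM8 can shed were a list of 18 genes with 11 tested. Without a block limma called 0, 1 and 0 of them, and with the code block it called 0, 2 higher, and 3 higher with 1 lower, in acute against standard, chronic against standard and chronic against acute. The block called 0.71%, 18.4% and 15.5% of all genes in these comparisons. The list's median log2 differences were 0.00, 0.07 and 0.17. Il6ra, the interleukin-6 receptor chain, rose in chronic against standard oxygen from 10.7, 11.7 and 10.9 TPM to 20.6, 23.8 and 20.6 TPM for X, Y and Z, a difference of 0.90 ± 0.11 (SE; limma adjusted p = 0.0210). Cx3cl1, a membrane-bound chemokine, stood at 2.93, 3.71 and 2.34 TPM in standard oxygen and 8.86, 8.42 and 4.28 TPM in chronic hypoxia. The groups did not overlap, and the difference was 0.99 ± 0.28 (limma adjusted p = 0.114 without a block and 0.0249 with it).

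Tnf, the substrate that gave ADAM17 its other name, stood at 122, 118 and 256 TPM in standard oxygen, 67.8, 66.8 and 98.2 TPM after acute hypoxia and 100, 93.4 and 133 TPM in chronic hypoxia for X, Y and Z. The acute library was below the standard library in every code and the groups did not overlap. Its difference in acute hypoxia was -1.004 ± 0.33 (SE; limma adjusted p = 0.542 without a block and 0.0665 with it). From acute to chronic hypoxia the difference was 0.49 ± 0.20 (limma adjusted p = 0.234 and 0.0165). Csf1r, the receptor of the macrophage growth factor M-CSF, stood at 470 ± 38.7, 470 ± 17.4 and 699 ± 106.2 TPM in standard oxygen, acute and chronic hypoxia (SD, n = 3). It was called with the code block against acute hypoxia (limma adjusted p = 0.0385) and not against standard oxygen (0.0541). Tnfrsf1b, a TNF receptor, was called lower against acute hypoxia at -0.37 (limma adjusted p = 0.0471 with the block). Other abundant shed proteins, namely Trem2 at 971 to 1586 TPM, Selplg at 302 to 367 TPM and Tnfrsf1a at 102 to 123 TPM, were called in no comparison.

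Matrix proteins that metalloproteinases cut were a list of 16 genes, of which 3 were tested and none was called with or without the code block. One of the 3 had an unadjusted limma p under 0.05 with the code block in chronic against acute hypoxia, and none had in the other fits with or without that block. Spp1, osteopontin, a secreted phosphoprotein that MMP9 and other members can cut, stood at 32868, 30166 and 22598 TPM in standard oxygen for X, Y and Z. It stood at 34293, 30264 and 21035 TPM in acute hypoxia and at 47549, 40387 and 18692 TPM in chronic hypoxia. Spp1 was higher in chronic hypoxia in X and Y and lower in Z, and the groups overlapped. Fn1, fibronectin, was at most 0.290 TPM.

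The genes whose pattern was most like that of Mmp12 and Mmp9, the members with the largest differences between chronic and standard oxygen among those with a mean of at least 10 TPM, were found by Pearson's r of log2(TPM + 1) over 9 libraries after removal of each code's mean, among 7107 genes above the same mean. For Mmp12 they were Anln (r = 0.9987), Atp2c1 (0.9962) and Ccdc126 (0.9924). Mean Anln was 6.93 TPM with standard oxygen, 7.87 TPM after acute hypoxia and 18.7 TPM after chronic hypoxia. For Mmp9 they were Plekhm3 (0.9981), Ids (0.9960) and Asah1 (0.9951). The libraries share 3 groups and 3 codes, and 321 genes for Mmp12 and 313 genes for Mmp9 had an r above 0.95.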

How the data were processed

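Gene-level TPM (length-corrected share of a library's transcripts) were deposited by the authors in 3 tables, each holding 1 pair of groups, and each sample was identical in the 2 tables that held it. The libraries were 75-base paired-end reads from a TruSeq mRNA kit, per the labels' protocols. FastQC, STAR, featureCounts and GRCm38 are named in the submitters' processing notes, without versions. Whether counting used strand is not given in the sources used here. TPM keeps no depth, so no counting error could be given. As TPM are shares, abundant genes that differ shift the values of all others.

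Symbols were matched for 34582 of 34866 identifiers. Each comparison was fitted in limma 3.58.1 under R 4.3.3 (eBayes with trend after lmFit, two-sided) on log2(TPM + 1), a scale that understates changes of low genes. It used the 6 samples of its groups, on genes with a mean of at least 1 TPM, and p-values were adjusted by Benjamini-Hochberg over all genes tested (threshold 0.05). The fit without a block was tested on simulated data with independent noise and no codes. The fits with a block were not tested in this way. Samples can be paired by the title's replicate number or by the code in the description. Deviations from group means correlated within codes at 0.375 to 0.535 (acute and standard) and 0.387 to 0.534 (chronic and standard). For chronic and acute they did so at 0.395 to 0.631. Title numbers gave -0.465 to 0.395, -0.508 to 0.387 and, being the same pairs as the codes, 0.395 to 0.631. In the comparisons with standard oxygen, title numbers differed from codes only by swapping Y and Z. As code Z stood apart in every group, matching Z alone can make the correlations of X and Y positive. Whether X and Y were matched rightly was not tested, and the blocked fits take the codes as given. The fit without a block was kept as the first value, with the code block beside it. Alternatives were other pseudocounts (0.1 and 5), filters (none, or 5 TPM), scalings, blocks, sample sets and eBayes without trend.

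The members and lists were chosen with earlier results of these data known. Named genes were all members, then per list the called genes (at most 4 by size of difference) and genes with a mean over 100 TPM. A gene of the regulator list is counted in that list and not reported singly here. In the marker lists, the code block called S100a8 lower in both chronic comparisons, Atp6v0d2 (osteoclast) and Itgam (macrophage) higher against standard oxygen, and Itgam and Csf1r higher and Cd14 and Fcgr1 lower against acute hypoxia. It called 5, 6 and 2 of the 6 hypoxia genes higher in acute against standard, chronic against standard and chronic against acute. No fibroblast, dendritic cell or endothelial marker was called. In chronic against standard oxygen, Adgre1, Cd14, Fcgr1 (macrophage) and Itgb3 (osteoclast) were lower in every code, and none of them was called. Csf1r was higher in every code there and was not called. The median log2 difference there was -0.02 over the 8 macrophage markers and -0.16 over the 4 osteoclast markers tested, beside 0.16 over all genes. Coordinates come from GENCODE M21 and sequences from RefSeq. No 75-base stretch of a member's longest transcript occurred in a transcript of another listed gene, read in the sense direction only. Other transcripts of the members and the reverse strand were not searched. Besides the overlaps given above, Timp3 shares exon positions with Syn3, a listed gene on the other strand.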

Additional observations from a re-analysis of the deposited data

Results flagged for a closer look

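For 2 members the difference from standard oxygen had opposite signs in acute and in chronic hypoxia in every code. The share of all genes with such a pattern was not counted, so how common it is cannot be read here. Of all genes tested, 46.9% were higher in chronic than in standard oxygen in 3 of 3 codes. Mmp9 was lower in acute and higher in chronic hypoxia in 3 of 3 codes, and the chronic minus acute difference was 1.13 on the log2 scale (limma adjusted p = 0.0987 without a block and 0.0141 with the code block). Mmp19 was higher in acute and lower in chronic hypoxia in 3 of 3 codes, with a chronic minus acute difference of -0.615 (limma adjusted p = 0.156 and 0.0389). Both genes were picked out by this pattern of signs, and these p-values test whether the chronic and acute groups differ, not the sign in acute hypoxia. Neither acute difference passed the threshold, and that of Mmp9 changed sign when a library was left out. Both effects are measured against the same standard libraries.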

How the results depend on the processing

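The count of members called in acute hypoxia against standard oxygen was 0 under every alternative run. In chronic against standard oxygen it was 0 without a block and 0 with the title number as a replicate block. It was 4 with the code as a replicate block, 3 with that block and rescaling, 5 with that block and all 9 samples, 1 with all 9 samples and no block (Mmp12), 5 without code Z, and 0 to 3 when 1 library was left out. In chronic against acute hypoxia it was 4 with either block, 3 with the code block and rescaling, and 4 with that block and all 9 samples. It was 1 with all 9 samples (Mmp12), 5 without code Z, and 0 to 2 when 1 library was left out. With the code block and all 9 samples, 2916 of 11067 genes were called in chronic against standard oxygen. In chronic against acute hypoxia 2464 of 11087 genes were. With all 9 samples and no block, the calls over all genes were 770 and 417 in these comparisons. Leaving out the acute Z library called Mmp9 in chronic against acute hypoxia, where 90 of 11038 genes were called. Leaving out the chronic Z library called Mmp12 and Mmp13 there, where 308 of 11047 genes were called. Pseudocount, filter, trend, rescaling alone and quantile normalization alone left all 3 counts at 0. With the title number as a block, Mmp12 in chronic against standard oxygen had a limma adjusted p of 0.195.

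Of 378 alternative values for 20 member-by-comparison differences, 307 kept direction and side of the threshold, 46 passed it in the same direction and 25 changed sign. The changes of sign were in Timp2, in Adam8 against acute hypoxia and in the acute differences of Mmp9, Mmp12 and Adam17, none of which passed the threshold. Leaving out 1 library moved the acute difference of Mmp9 between -0.46 and 0.17, of Mmp12 between -0.48 and 0.55, of Timp2 between -0.44 and 0.38 and of Adam17 between -0.022 and 0.15. It moved Timp2 between -0.47 and 0.64 in chronic against standard oxygen and between -0.45 and 0.68 in chronic against acute hypoxia, and Adam8 between -0.019 and 0.26 in the latter. Without code Z the acute difference of Mmp12 was -0.25, and that of Timp2 was 0.24 in chronic against standard oxygen and 0.27 in chronic against acute hypoxia. Quantile normalization gave -0.0084 for Adam17 in acute hypoxia and -0.062 for Adam8 in chronic against acute hypoxia. Rescaling, with or without the code block, gave -0.065 for that Adam8 difference. The cause was not tested.

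Over all genes, limma called 3, 298 and 77 genes without a block (acute against standard, chronic against standard, chronic against acute), 78, 2039 and 1724 with the code block, 0, 1 and 1724 with the title block, 21, 233 and 81 after rescaling, and 319, 2300 and 1788 without code Z. Rescaling moved the split of higher to lower calls from 232 and 66 to 115 and 118 in chronic against standard oxygen, and from 61 and 16 to 33 and 48 in chronic against acute hypoxia. With the code block the splits moved from 1674 and 365 to 612 and 655, and from 1345 and 379 to 523 and 561. Depth is unknown, so values under 1 TPM, such as those of Timp1, Timp3 and Mmp14, carry no stated error.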

Other observations

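Some genes often read in macrophage cultures were listed near 0 here, and they were chosen after their values were seen. Apoe, an apolipoprotein abundant in many tissue macrophages, was listed at 0.901 to 4.62 TPM over the 9 libraries. S100a9, whose protein pairs with that of S100a8, was listed at 0 in 8 of 9 libraries and at 0.231 TPM in the other, whereas S100a8 was at 258 to 1906 TPM. Fn1, Mmp14, Timp1 and Timp3 were likewise below 1 TPM in every library. How counting or annotation treated these genes was not tested.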
